A study of Homo sapiens with 6 samples.

Results

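Germ cell and meiosis genes were followed in whole-genome bisulfite sequencing of H9, an embryonic stem cell line established from a human embryo, as 40 genes chosen by name among 19812 protein-coding genes with a canonical start on chromosomes 1 to 22 and X. They comprise 16 genes of the piRNA pathway, 8 germ cell regulators, 7 genes of the synaptonemal complex and chromosome axis, 4 of meiotic cohesin and 5 of meiotic recombination, and lie on 17 autosomes. Each gene was measured over its promoter, which spans 1000 bp before and 500 bp after the canonical transcription start, and over its body, from 500 bp past the start to the transcript end. Levels are the percentage of methylated calls on the CpGs of a feature in a library. All 40 promoters and all 40 bodies had at least 10 calls in every library.

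The study compared 3 libraries of conventional H9 cells with 3 libraries of reset H9 cells. The paper reports mouse feeder cells for the cultures, conventional and reset alike. Conventional cells were grown in FGF/KSR, a primed-state medium with 20% KSR (a serum replacement) and 10 ng/ml bFGF. Reset cells had been obtained with NANOG and KLF2 transgenes induced by doxycycline at 1 µM. After withdrawal of doxycycline they were grown in t2iL+Gö, which holds LIF, the GSK3 inhibitor CHIR99021 at 1 µM, the MEK inhibitor PD0325901 at 1 µM and Gö6983 at 5 µM, which inhibits protein kinase C. The labels do not say whether the conventional libraries carried the transgenes or whether the reset libraries came from separate resettings, so p-values measure only the spread between these libraries. Both groups share the H9 line, which is 1 genotype, and the labels could not be checked against marker expression because only methylation calls were used.

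Germ cell genes are the textbook case of genes kept silent in somatic cells by methylation of CpG-rich promoters. In the germline this methylation is erased and the genes are transcribed. The piRNA pathway loads small RNAs onto PIWI proteins and silences transposable elements, the synaptonemal complex pairs homologous chromosomes, and meiotic recombination opens and repairs DNA breaks between them.

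Sequences upstream of 5 starts are shown because they show both ends of the range described below, near-complete loss and partial retention. They were read from the GRCh37 genome 5′ to 3′ on the strand of the gene, and capitals mark the CpGs. Each is the longest stretch of the 250 bases before the start that holds no exon of a coding gene, trimmed to 200 bases. BRDT, SYCP3 and MEI1 lost nearly all methylation here, whereas DAZL and RNF17 averaged over 60% in reset cells.
BRDT, chr1:92414708-92414899, plus strand: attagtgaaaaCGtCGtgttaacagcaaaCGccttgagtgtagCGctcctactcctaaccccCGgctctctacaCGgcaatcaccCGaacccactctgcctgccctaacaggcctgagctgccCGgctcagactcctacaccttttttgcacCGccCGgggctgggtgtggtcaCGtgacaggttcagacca
SYCP3, chr12:102133251-102133355, minus strand: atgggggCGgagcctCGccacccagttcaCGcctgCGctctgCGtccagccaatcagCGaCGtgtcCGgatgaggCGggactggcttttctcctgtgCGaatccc
MEI1, chr22:42095307-42095506, plus strand: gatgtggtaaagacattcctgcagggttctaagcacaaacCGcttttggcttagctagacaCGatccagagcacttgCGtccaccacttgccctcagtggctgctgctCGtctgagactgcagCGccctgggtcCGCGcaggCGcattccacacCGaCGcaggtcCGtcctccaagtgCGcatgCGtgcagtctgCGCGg
DAZL, chr3:16646931-16647130, minus strand: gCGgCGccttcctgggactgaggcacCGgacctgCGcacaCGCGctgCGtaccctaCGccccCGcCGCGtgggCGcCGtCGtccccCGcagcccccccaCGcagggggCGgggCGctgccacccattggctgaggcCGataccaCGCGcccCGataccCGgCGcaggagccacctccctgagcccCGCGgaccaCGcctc
RNF17, chr13:25338107-25338306, plus strand: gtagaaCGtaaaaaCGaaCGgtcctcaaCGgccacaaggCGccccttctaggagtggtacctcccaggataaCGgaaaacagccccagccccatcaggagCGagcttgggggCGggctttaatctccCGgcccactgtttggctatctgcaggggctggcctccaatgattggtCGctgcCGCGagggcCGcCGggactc

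The BRDT stretch, with 11 CpGs, was methylated at 93.8% ± 0.632 in conventional cells (SD, n = 3). In reset cells 0 of 131 calls on it were methylated. This allows a level of up to 2.29%, which is 3 divided by the pooled calls. That bound takes the calls as independent and leaves out the spread between libraries. The SYCP3 stretch, with 10 CpGs, went from 99.0% ± 1.75 to 0.775% ± 1.34, which rests on 1 methylated call of 119, in the third reset library. The MEI1 stretch, with 15 CpGs, went from 91.7% ± 2.78 to 4.43% ± 3.91. The RNF17 stretch has a similar number of CpGs, 14, yet went from 98.2% ± 3.12 to 64.6% ± 14.7. The DAZL stretch, with 27 CpGs, went from 95.2% ± 2.36 to 68.4% ± 7.66. These stretches hold 15 to 108 calls per library, so each value is coarse. The 5 genes were picked from the ends of the range, and stretches chosen in the same way in other genes do overlap: the third reset library had 24.4% in MOV10L1, a gene with a large fall, and 21.4% in TDRD9, which kept a large share.

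Over the whole genome the autosomal level was 84.5% ± 0.164 in conventional and 30.01% ± 0.429 in reset cells (SD, n = 3). The libraries held 70329213 to 98004161 calls, or 2.53 to 3.50 calls per autosomal CpG, with the reset libraries the shallower. Member promoters had 53 to 354 calls per library, and the 95% Wilson interval of a promoter level had a median width of 11.0 points and a largest width of 22.8 points. Intervals cover counting error only and take the calls as independent. Coverage of each member, over promoter and body together, was taken relative to each library's autosomal mean. The ratio of reset to conventional cells lay between 0.897 and 1.505. Ratios over the promoters alone were not taken.

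Nearly all of these genes lost promoter methylation on resetting. The mean over the 40 promoters was 74.3% ± 0.911 in conventional and 30.4% ± 0.672 in reset cells (SD, n = 3), with 73.4 to 75.3% in the conventional and 29.7 to 31.0% in the reset libraries. By a quasi-binomial model fitted to all 19293 tested coding promoters, 38 of the 40 were lower and 0 were higher at an adjusted p of 0.05. Over all coding promoters 67.4% were lower and 3.98% higher. In 38 members the 3 reset libraries were all below the 3 conventional ones and in 1 member above, against 69% and 4.63% of all coding promoters. No member was higher at an unadjusted p under 0.05 either, where 4.34% of all promoters were. With Fisher's exact test on pooled calls, which ignores the spread between libraries, 1 member was higher, DMC1, against 5.52% of all promoters.

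The share of promoters called lower differed with the starting level. Of the members, 31 were at 50% or more in conventional cells, from here called methylated, and all 31 were lower, as were 99.3% of all 5125 coding promoters at that level. The other 9 began under 50%, and 7 of them were lower, against 55.9% of all coding promoters under 50%. The share of members that fell was thus near that of other promoters among the methylated ones.

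**Figure D1:**
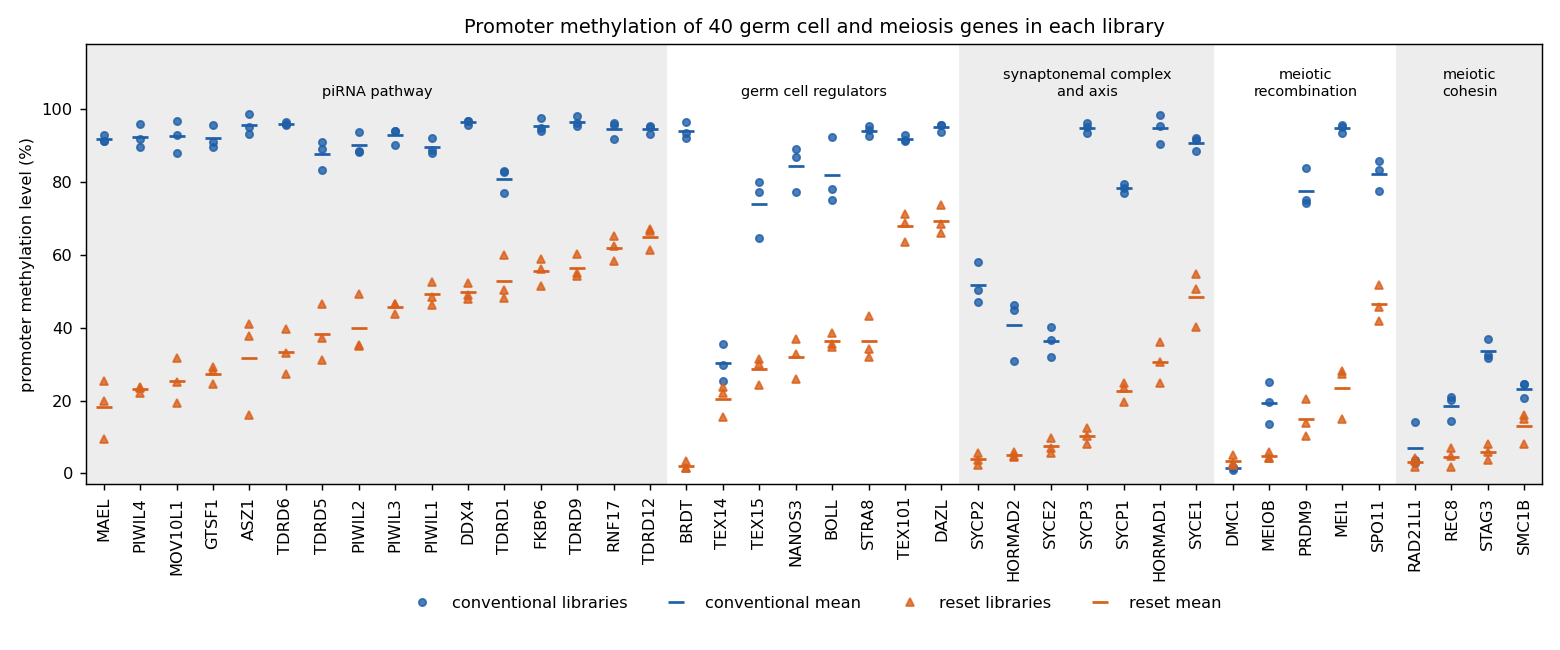
Methylation level (%) of the 40 promoters in each of the 3 conventional libraries (blue circles) and 3 reset libraries (orange triangles), with group means as bars, grouped by role. Most genes run from over 80% to between 20 and 70%, and the reset levels spread far more between genes than between libraries.

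Many members combined a high conventional level with a high CpG number. The number of CpGs in the 1500 bp window set the class of a promoter, and no member was CpG-poor (under 30). The 12 members with 30 to 59 CpGs fell from 88.0% ± 1.39 to 33.5% ± 1.78, and the 28 CpG-dense members, with 60 or more, from 68.4% ± 0.747 to 29.1% ± 0.366 (SD, n = 3). Of the CpG-dense members 19 were at 50% or more in conventional cells, whereas 3.79% of all CpG-dense coding promoters were. Of 31 CpG-dense promoters among 46 further germ cell and meiosis genes, described at the end, 10 were at that level too. Among these 31 methylated members the number of CpGs and the reset level were hardly related across genes (Spearman's rho = 0.133, n = 31 genes measured in the same libraries).

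Set beside other promoters of like CpG class and like conventional level, the methylated members lay at both ends, and their placement differed between the CpG classes. The 17 CpG-dense members at 80 to 100% in conventional cells had a median of 39.9% in reset cells, and the 250 other such promoters had 38.2% with quartiles of 15.1 and 48.8%. SYCP3 lay below the lower quartile, and 7 genes lay above the upper one: DAZL, TDRD12, RNF17, TDRD9, FKBP6, DDX4 and PIWIL1. The 10 members with 30 to 59 CpGs at that level had a median of 34.2%, and the 790 other such promoters had 39.9% with quartiles of 32.5 and 46.7%. Of these 10, BRDT, PIWIL4, GTSF1, HORMAD1 and NANOS3 lay below the lower quartile, and TEX101 and TDRD1 above the upper one. At 50 to 80% in conventional cells PRDM9 and SYCP2 lay below the lower quartile of their class and TEX15 above the upper one. Under 50% the classes are wide, and the members began higher within them than the others did. The 4 CpG-dense members at 0 to 20% there had a median of 3.97% in reset cells against 1.84% in 10075 others, but their conventional medians were 12.8 and 5.22% and the median shares kept 34.6 and 42.8%. The 5 at 20 to 50% had 7.45% against 7.33% in 2083 others, from conventional medians of 33.7 and 26.2%, and the median shares kept were 20.5 and 27.3%. No test was made of these placements.

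**Figure D2:**
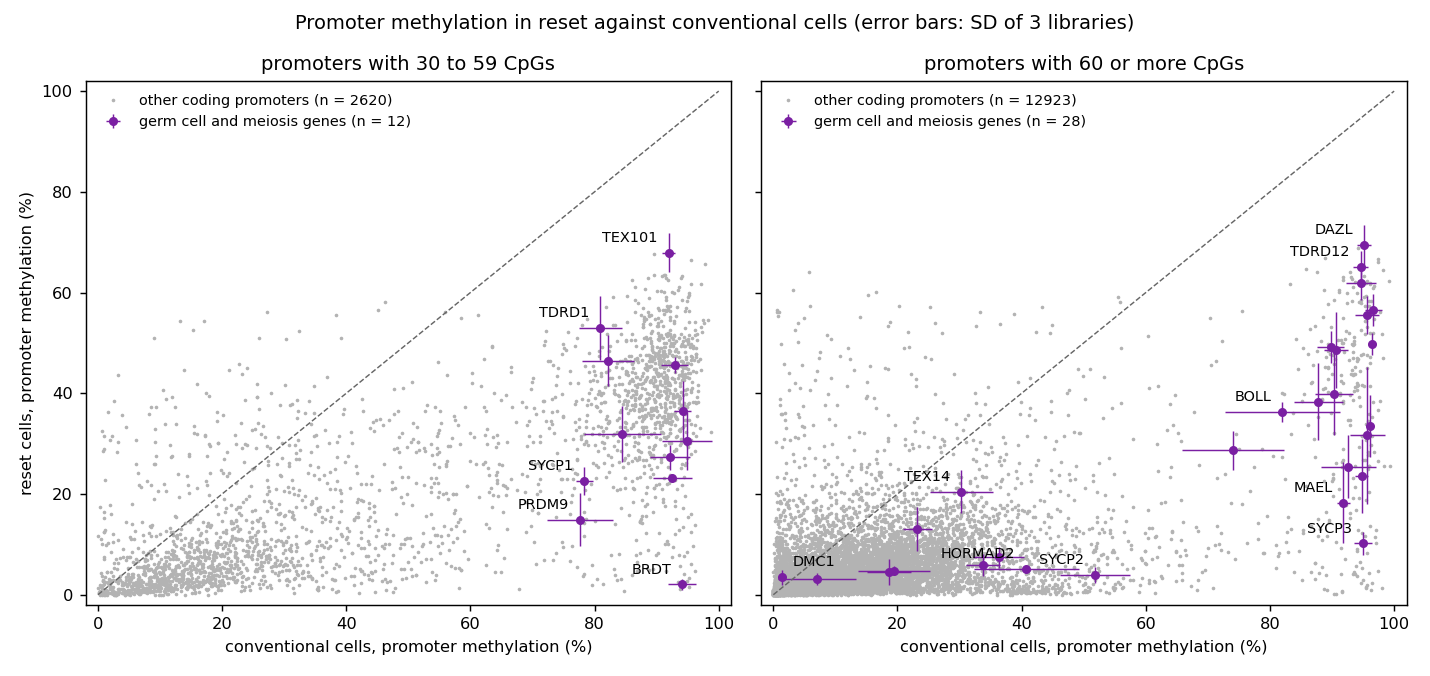
Promoter methylation level (%) in reset against conventional cells, as means of 3 libraries, for the germ cell and meiosis genes (purple, error bars SD) and other coding promoters (grey), with 30 to 59 CpGs (left) and 60 or more (right); the dashed line marks equal levels. The members on the right cluster at high conventional levels, where few CpG-dense promoters lie, and the 17 at 80 to 100% there spread from 10.2% (SYCP3) to 69.5% (DAZL) in reset cells.

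The piRNA pathway genes were uniformly methylated in conventional cells. They had the highest mean level of the 5 roles in both groups of cells. The share of the conventional mean that they kept, 45.5%, was near the 45.4% of the germ cell regulators. The 16 piRNA promoters averaged 92.5% ± 0.635 in conventional cells, each between 80.9 and 96.6%, and 42.1% ± 0.179 in reset cells (SD, n = 3). All 16 were lower. Among them MAEL, a protein of the germ granule where piRNAs are made, fell furthest. Its promoter (chr1:166957517-166959017) stood at 91.3, 93.0 and 91.2% in the conventional and 9.55, 25.5 and 19.8% in the reset libraries, a fall of 73.6 points (adjusted p = 6.94e-09). The groups are far apart, and the first reset library is the lowest. At the start of the MAEL transcript that begins farthest upstream, 13698 bp away, the level was 0.975% in conventional and 2.65% in reset cells, so the window at this alternative start was nearly unmethylated in both. That start lies 42 bp from the start of ILDR2, and the window covers both.

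PIWIL4, a PIWI protein that in mouse directs silencing in the nucleus, was next. Its promoter (chr11:94299534-94301034, with 35 CpGs the fewest of any member) gave 96.0, 89.7 and 91.8% in conventional and 22.2, 23.5 and 23.7% in reset libraries (adjusted p = 3.91e-08). The 3 reset values lie close together. MOV10L1, the helicase that handles piRNA precursors, gave 96.8, 93.0 and 88.1% against 25.2, 31.8 and 19.3% (chr22:50527435-50528935, adjusted p = 1.57e-08). GTSF1, a zinc finger partner of PIWI proteins, gave 91.0, 89.8 and 95.8% against 29.2, 24.5 and 28.1% (chr12:54866886-54868386, adjusted p = 2.63e-08). In conventional cells these genes lay within the range of the other piRNA genes, and the differences between genes appear in the reset libraries.

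The highest reset levels in the pathway were those of TDRD12, RNF17, TDRD9, FKBP6 and TDRD1. TDRD12, a Tudor domain protein, kept 68.7% of its conventional level: its promoter (chr19:33209673-33211173) stood at 93.2, 95.4 and 95.2% in conventional and 61.3, 66.7 and 67.1% in reset libraries (adjusted p = 8.51e-07). RNF17, which carries Tudor domains and a RING finger, kept 65.5%, with 91.9, 95.7 and 96.3% against 62.4, 65.2 and 58.3% (chr13:25337307-25338807, adjusted p = 2.13e-06). TDRD1, a scaffold of the germ granule, kept 65.4%, with 83.1, 82.7 and 77.0% against 60.2, 50.5 and 48.1% (chr10:115938112-115939612, adjusted p = 8.11e-05). All 3 fell, and all their reset values but the third of TDRD1 stayed above 50%. TDRD9, a helicase with a Tudor domain, kept 58.5%, with 98.1, 96.3 and 95.5% against 54.2, 60.3 and 55.2% (chr14:104393793-104395293, adjusted p = 1.57e-08). FKBP6, a co-chaperone, went from 95.6% ± 1.95 to 55.6% ± 3.78 (SD, n = 3). FKBP6 has near-identical copies in the genome, so its calls may mix loci, and its start lies 79 bp from that of TRIM50.

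The remaining piRNA genes fell to between 31.6 and 49.7%. DDX4, the germ cell RNA helicase also called VASA, went from 96.4% ± 0.658 to 49.7% ± 2.24, and the PIWI genes PIWIL1, PIWIL2 and PIWIL3 reached 49.2% ± 3.12, 39.9% ± 8.17 and 45.6% ± 1.66 in reset cells (SD, n = 3). The Tudor genes TDRD5 and TDRD6 reached 38.3% ± 7.67 and 33.4% ± 6.17. ASZ1, a germ granule protein of mitochondria, reached 31.6% ± 13.5, the largest spread between reset libraries of any member, with 37.6, 16.1 and 41.2%. Neighbours in this order mostly differ by less than their spread, so the order within this range is not resolved.

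The 8 germ cell regulators averaged 80.8% ± 1.77 in conventional and 36.6% ± 2.26 in reset cells (SD, n = 3), and all 8 were lower, but they hold both extremes of the 40 genes. BRDT, a testis bromodomain protein that binds acetylated histones, had the largest fall. Its promoter (chr1:92413958-92415458) gave 93.5, 92.2 and 96.7% in conventional and 1.39, 3.35 and 1.41% in reset libraries, a fall of 92.1 points (adjusted p = 2.20e-10). DAZL, an RNA-binding protein needed for germ cell fate, had the highest reset level of the 40. Its promoter (chr3:16646430-16647930) gave 95.7, 95.8 and 93.8% against 68.5, 73.8 and 66.2%, so 73.0% of the conventional level was kept (adjusted p = 1.38e-06). TEX101, a germ cell surface protein, kept 73.8%, with 91.5, 91.2 and 93.1% against 68.8, 71.3 and 63.6% (chr19:43918042-43919542, adjusted p = 5.87e-05). BRDT and DAZL differ by less than their spread in conventional cells and by over 60 points in reset cells.

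Both retaining genes have another coding start upstream. At the start 13394 bp upstream of that of TEX101 the level went from 87.2% ± 6.20 to 33.6% ± 4.72 (SD, n = 3). The window at the start 64883 bp upstream of that of DAZL holds 5 CpGs and as few as 10 calls, and it went from 73.9% ± 3.86 to 29.1% ± 25.5, with 0, 39.4 and 47.8% in the reset libraries. Without the first reset library its mean was 43.6%. The other regulators lay between the extremes. STRA8, the gene through which retinoic acid starts meiosis, went from 94.2% ± 1.35 to 36.5% ± 5.90, and BOLL, a relative of DAZL, from 82.0% ± 9.28 to 36.2% ± 2.01 (SD, n = 3). NANOS3, which guards early germ cells, went from 84.5% ± 6.26 to 31.9% ± 5.56, and TEX15, a testis protein tied to transposon silencing, from 74.1% ± 8.23 to 28.7% ± 3.80.

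TEX14, a protein of the bridges between germ cells, changed little over its window, from 30.3% ± 5.09 to 20.5% ± 4.27 (SD, n = 3, adjusted p = 0.0207). That call was lost without the first conventional library (a fall of 7.19 points, adjusted p = 0.0711) and without the first reset library (a fall of 7.40 points, adjusted p = 0.151), and also with a replicate block (a fall of 9.82 points, adjusted p = 0.0844), which leaves 7 of the 8 regulators lower. Its annotated start coincides with that of IGBP1C. In the 300 bp around the start, from 250 bp before to 50 bp after it, TEX14 stood at 87.4% in conventional and 32.2% in reset cells, and the low level of the wide window lay upstream. In conventional cells the bins of 250 bp centred 875 and 625 bp upstream of its start stood at 0 and 3.89%, and the first 2 bins after the start at 92.5 and 92.3%.

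Genes of the synaptonemal complex and chromosome axis ended lower than the piRNA genes. The 7 promoters averaged 69.7% ± 1.502 in conventional and 18.4% ± 1.03 in reset cells (SD, n = 3), and all 7 were lower. SYCP3, a lateral element protein, had the second largest fall. Its promoter (chr12:102132740-102134240) gave 93.5, 96.3 and 95.1% in conventional and 7.96, 10.2 and 12.4% in reset libraries, a fall of 84.8 points (adjusted p = 4.28e-10). SYCP3 is also the member with the highest coverage ratio of reset to conventional cells, 1.505 over its promoter and body together. The ratio over its promoter alone was not taken, and over the 500 kb on either side of its start it was 1.13. The part of coverage in the fall of SYCP3 was not tested. Over the 40 genes the ratio in such flanks ran from 0.938 to 1.18.

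SYCP2, the partner of SYCP3 in the lateral element, went from 51.8% ± 5.62 to 3.96% ± 1.63, and SYCP1, the transverse filament, from 78.3% ± 1.36 to 22.6% ± 2.72 (SD, n = 3). HORMAD1, an axis protein that monitors pairing, gave 98.6, 95.5 and 90.6% in conventional and 30.7, 36.2 and 24.8% in reset libraries (chr1:150692871-150694371, adjusted p = 8.01e-08). Its relative HORMAD2 began at 40.7% ± 8.45 and ended at 5.16% ± 0.701. SYCE2, of the central element, went from 36.3% ± 4.04 to 7.45% ± 2.09. Within the 300 bp around the start neither passed the test, with 3.41 and 1.49% for HORMAD2 (adjusted p = 0.632) and 1.00 and 0.844% for SYCE2 (adjusted p = 1). SYCE1, also of the central element, was the exception with 90.7% ± 1.95 and 48.6% ± 7.55. At the start of the SYCE1 transcript 4252 bp upstream the level was 68.7% ± 5.51 in conventional and 68.1% ± 14.2 in reset cells (SD, n = 3). The difference did not pass the test (adjusted p = 0.774). That window holds 84 CpGs but only 36 to 57 calls per library, so many of its CpGs were not measured in a given library.

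The 5 genes of meiotic recombination ran from unmethylated to nearly fully methylated in conventional cells. MEI1, needed for meiotic break formation, gave 95.1, 93.7 and 95.6% in conventional and 28.2, 27.4 and 15.0% in reset libraries (chr22:42094507-42096007, adjusted p = 6.46e-09). PRDM9, the histone methyltransferase that places recombination hotspots, went from 77.7% ± 5.34 to 14.9% ± 5.22 and SPO11, the enzyme that makes the breaks, from 82.2% ± 4.19 to 46.5% ± 5.02 (SD, n = 3). MEIOB, a single-strand DNA-binding protein, was low in both, with 13.6, 19.6 and 25.2% against 5.88, 4.35 and 4.17% (chr16:1921665-1923165, adjusted p = 6.70e-05). In the 300 bp around its start MEIOB stood at 1.70 and 0.775%, which did not pass the test (adjusted p = 0.852). DMC1, the meiotic strand-exchange recombinase, had the lowest conventional level of the 40, with 1.38, 0.913 and 1.82% against 2.37, 5.17 and 2.83% (chr22:38965688-38967188). Every reset library of DMC1 lay above every conventional library, yet the difference of 2.09 points did not pass the test (adjusted p = 0.0872). Without the second reset library it was 1.23 points (adjusted p = 0.259), and Fisher's exact test gave an adjusted p of 0.0328 when calls were pooled.

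The 4 meiotic cohesin genes were little methylated over the whole promoter to begin with, at 20.6% ± 1.80 in conventional and 6.63% ± 1.82 in reset cells (SD, n = 3), and 3 of the 4 were lower. REC8, the meiotic kleisin that holds sister chromatids together, gave 20.3, 14.5 and 21.1% against 1.81, 6.98 and 4.69% (chr14:24640289-24641789, adjusted p = 0.000116). From 500 bp before to 500 bp after the start it was 0.767 points lower in reset cells, which did not pass the test (adjusted p = 0.800). Within the 300 bp around the start REC8 averaged 1.67% in conventional and 4.89% in reset cells. The libraries there gave 0, 0 and 5% against 3.33, 4.35 and 6.98%, which did not pass the test (adjusted p = 0.632). RAD21L1, another kleisin, gave 14.2, 2.96 and 3.77% against 3.45, 4.15 and 1.71% (chr20:1205688-1207188). Those groups overlap (adjusted p = 0.114), and the first conventional library alone is high. Without it RAD21L1 was 0.260 points lower in reset cells (adjusted p = 0.877). STAG3 went from 33.7% ± 2.73 to 5.85% ± 2.19 and SMC1B from 23.2% ± 2.28 to 13.1% ± 4.29 (SD, n = 3). In the 300 bp around its start SMC1B stood at 2.80 and 0.813%, which did not pass the test (adjusted p = 0.623). STAG3, in contrast, stood at 75, 60 and 43.1% in the conventional libraries around its start and at 2.53, 1.59 and 0% in the reset libraries (adjusted p = 0.0247). STAG3 has near-identical copies elsewhere in the genome, and the starts of STAG3 and SMC1B lie 537 bp from that of GPC2 and 94 bp from that of RIBC2.

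Levels were next resolved in bins of 250 bp around the start. In the 19 methylated CpG-dense members the bin just before the start averaged 89.9% in conventional cells, close to its neighbours, but 29.9% in reset cells, the lowest within 1 kb of the start. Its neighbours stood at 41.8 and 37.03%, and the highest bin, centred 625 bp past the start, at 50.1%. In the 12 methylated members with 30 to 59 CpGs the bin before the start averaged 30.3% in reset cells, with 38.1 and 34.9% beside it, but the bin centred 875 bp past the start was lower, at 27.5%. In 7 of the 9 members under 50% the bin before the start stood at 0.909 to 3.03% in conventional cells, whereas in STAG3 it stood at 54.7% and in TEX14 at 83.3%. Over the 9 genes that bin averaged 17.0%, and the bin centred 1125 bp upstream 74.1%, and in reset cells the same bins stood at 4.06 and 22.7%. Averages are over 9 to 19 genes, and no test was made of the bins.

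**Figure D3:**
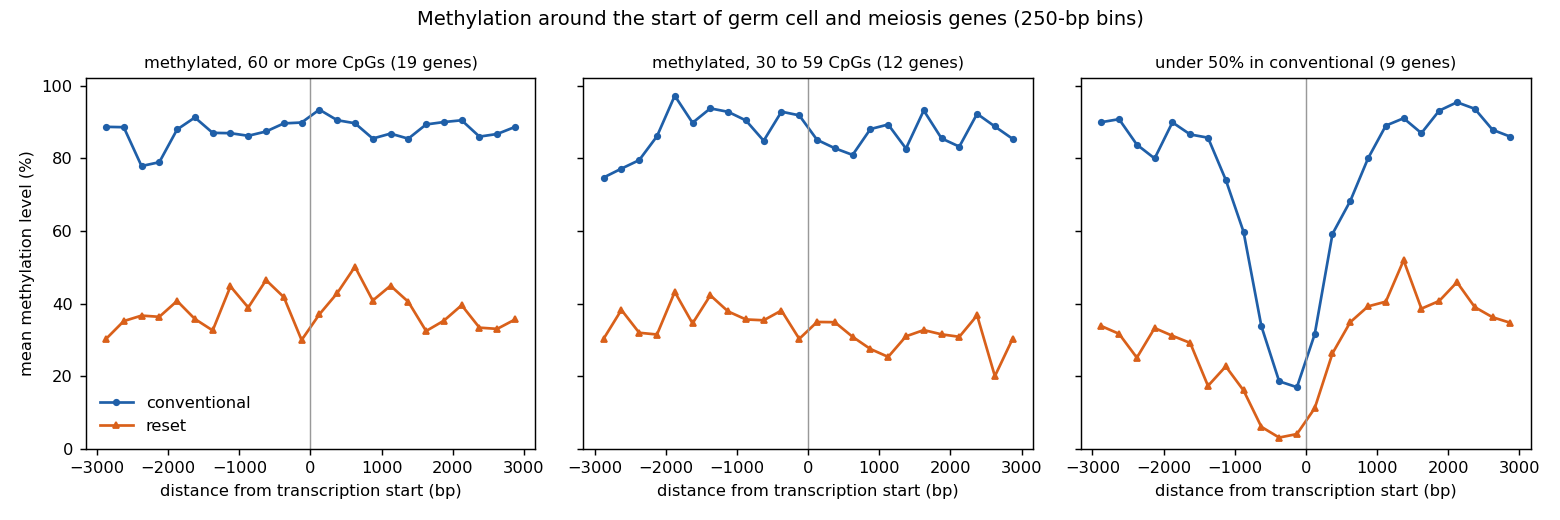
Mean methylation level (%) over members in 250-bp bins, by distance from the transcription start on the strand of the gene, in conventional (blue) and reset (orange) cells, with calls of 3 libraries pooled. Methylated CpG-dense genes dip to 29.9% just before the start in reset but not in conventional cells, and genes under 50% average lower levels around the start than farther out in both.

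Levels close to the start were unequal between genes. In the 300 bp around the start 36 members had at least 10 calls in every library, 28 of them at 50% or more over the wide promoter. Of these 28, 18 stood lower there than over the whole promoter in reset cells and 7 stood under 10%, against 63.3 and 26.04% of 814 other such coding promoters with 30 or more CpGs. Of the 19 CpG-dense ones 13 stood lower and 5 stood under 10%, against 69.1 and 39.3% of 275 others. Leaving out 1 reset library, which was tried after the values had been seen, gave 6 or 7 of the 28 under 10%. MEI1 had 4.19% ± 3.70 around the start against 23.6% over the promoter, MOV10L1 8.49% ± 9.97 against 25.4% and TEX15 7.80% ± 7.39 against 28.7% (SD, n = 3). These levels rest on few calls, as few as 12 in MOV10L1, and some on single libraries. MOV10L1 stood at 6, 0 and 19.5% in the reset libraries, so that its mean was 3.00% without the third and 12.7% without the second. TEX15 stood at 8.70, 14.7 and 0%, with a mean of 4.35% without the second library and 11.7% without the third. MEI1 had 2.78% without the second and 6.29% without the third. PRDM9 had 3.98% ± 0.168 against 14.9% and SYCP3 3.53% ± 5.07 against 10.2%, with 5.29% for SYCP3 without the second library and 0.625% without the third. DAZL, by contrast, had 70.2% ± 7.52 around the start, RNF17 64.4% ± 8.75 and TEX101 70.8% ± 9.53. The narrow window has fewer calls, and there the falls of RNF17, TEX101, TDRD1, TDRD9 and TEX15 did not pass the test (adjusted p = 0.0648, 0.114, 0.312, 0.104 and 0.0657). The differences were -29.2, -19.4, -22.9, -37.2 and -64.7 points there, against -32.7, -24.1, -28.0, -40.1 and -45.4 points over the promoter.

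**Figure D4:**
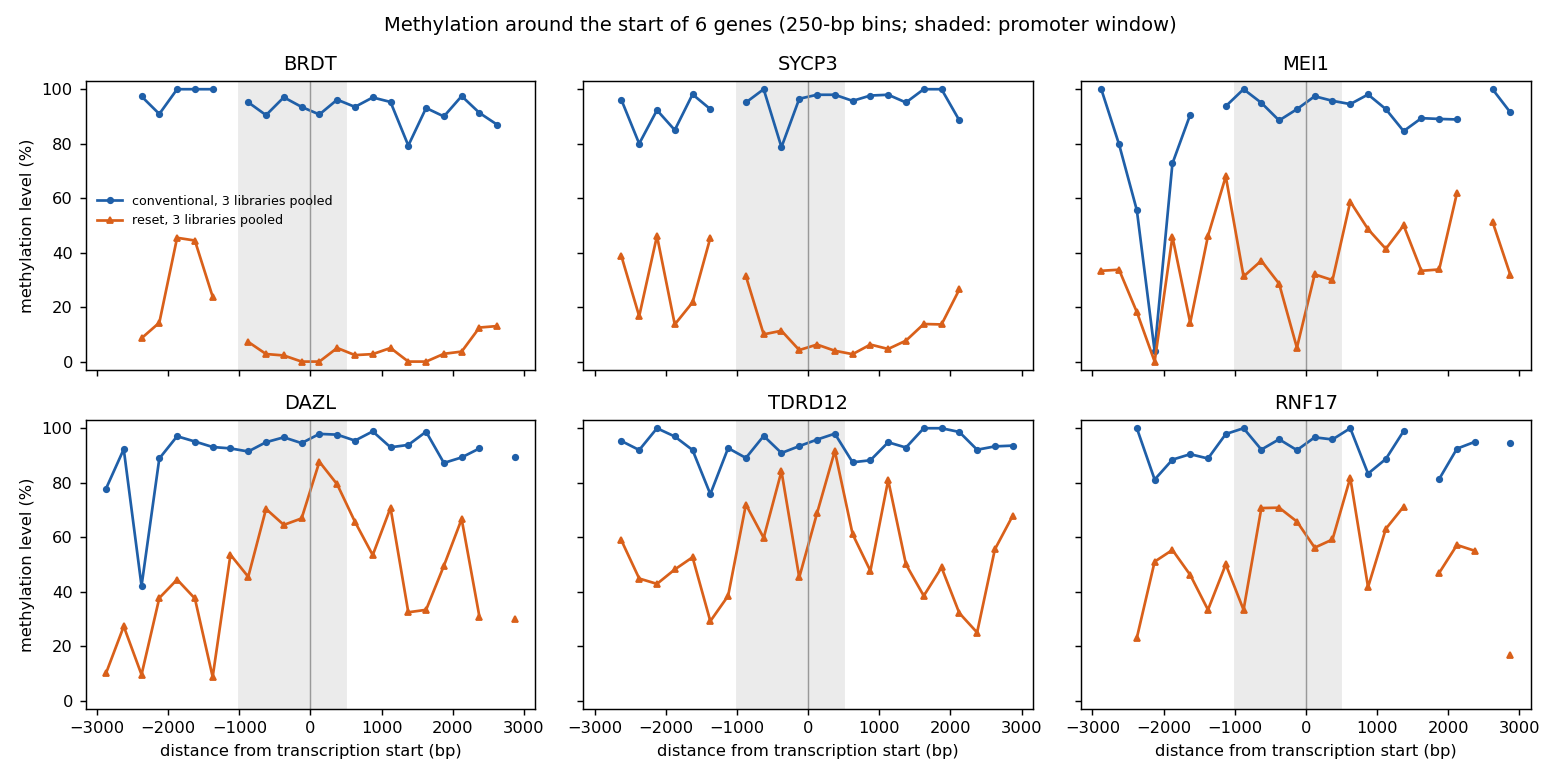
Methylation level (%) in 250-bp bins by distance from the start for 3 genes that fell far (top) and 3 that kept much (bottom), in conventional (blue) and reset (orange) cells with calls of 3 libraries pooled; the promoter window is shaded and bins with too few calls are left out. BRDT and SYCP3 are near 0 over a broad stretch in reset cells, MEI1 dips at the start, and DAZL peaks there.

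Short motifs were counted in the same 300 bp on both strands, as letters only. CACGTG, the E-box bound by MAX and MGA, occurred in 10 of the 40 members, or 25%, and in 8.73% of 19772 other coding genes, with 25% of the CpG-dense members against 10.3% of the other CpG-dense genes. TCCCGC, an E2F site, occurred in 22 members, or 55%, and in 36.4% of other coding genes. By class it occurred in 64.3% of CpG-dense members against 48.7% of other such genes, and in 33.3% of members with 30 to 59 CpGs against 23.7%. A CACGTG lies in the BRDT stretch printed above. Among the methylated members the 9 with CACGTG had a median reset level of 38.3%, with a range from 2.05 to 65.0%, and the 22 without it had 34.8%, from 3.96 to 69.5%. With TCCCGC (16 members) the median was 31.1% and without it (15 members) 38.3%.

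Gene bodies fell more evenly than promoters. The 40 bodies averaged 87.4% ± 0.196 in conventional and 33.4% ± 0.705 in reset cells (SD, n = 3), and all 40 were lower, as were 97.8% of the 19148 coding bodies tested. In all 40 every reset library lay below every conventional one, against 97.7% of all bodies. The median share kept was 40.4% both in the members and over all coding bodies. Body levels in reset cells ranged from 12.2 to 50.4%, and promoter levels from 2.05 to 69.5%. In conventional cells bodies began at 61.9% or more, but promoters from 1.37%. Most bodies also average over more CpGs and calls than promoters do. The part of these differences in the narrower range was not tested. In reset cells the promoter exceeded the body in 18 of the 40 genes, and in conventional cells in 22. The share over all coding genes is not given here. Across the 31 methylated members promoter and body levels in reset cells had a Spearman's rho of 0.366, over genes measured in the same libraries.

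SYCE1 kept the largest share in its body, 75.9%, with 66.5, 65.7 and 65.0% in conventional and 49.7, 50.7 and 49.3% in reset libraries. TEX101 kept 60.7%, with 84.3, 80 and 85.1% against 48.6, 44.6 and 58.1%, so both its promoter and its body ranked high. SMC1B kept 49.8%, with 90.9, 90.7 and 89.0% against 44.5, 45.7 and 44.6%. The 3 bodies that kept least were those of RAD21L1, ASZ1 and SYCP3. RAD21L1 kept 15.2%, with 79.98, 82.0 and 78.3% against 11.4, 10.8 and 14.4%. ASZ1 kept 18.7%, with 89.7, 89.5 and 90.5% against 15.6, 18.0 and 16.7%. SYCP3 kept 22.2%, with 97.1, 95.6 and 95.2% against 18.5, 22 and 23.4%. The body of BRDT, in contrast to its promoter, still stood at 36.5% ± 2.03 in reset cells (SD, n = 3), and that of DAZL stood at 32.2% ± 4.06.

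**Figure D5:**
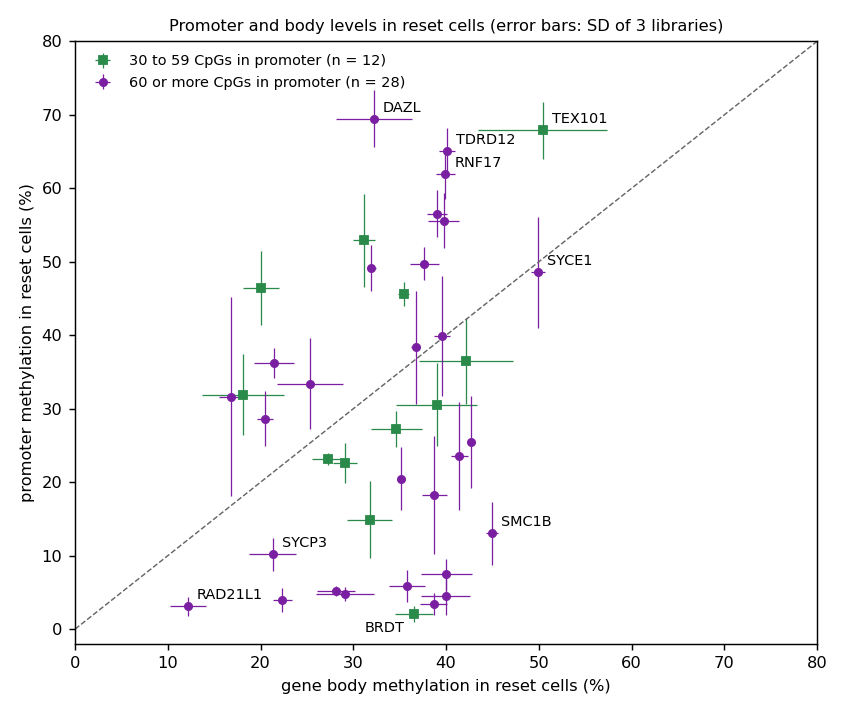
Promoter against gene body methylation level (%) in reset cells for the 40 genes, as means of 3 libraries with error bars of SD; squares have 30 to 59 CpGs in the promoter and circles 60 or more, and the dashed line marks equal levels. Bodies lie between 12.2 and 50.4%, promoters between 2.05 and 69.5%, with 18 genes above the line.

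A list of 46 further autosomal germ cell and meiosis genes was counted in the same way. Of these 46 promoters 42 were lower and 0 higher, beside the 67.4 and 3.98% of all coding promoters. The 23 at 50% or more in conventional cells were all lower and had a median of 93.8% in conventional and 38.99% in reset cells. Of those 23, 6 ended under 20%, as did 5 of the 31 methylated members (BRDT, SYCP2, SYCP3, PRDM9 and MAEL) and 23.7% of the 4702 other autosomal coding promoters at 50% or more. Among the CpG-dense ones 4 of 10 in this list, 3 of 19 members and 38.5% of 338 other promoters did. The highest reset level in this list was that of SPATA22, a partner of MEIOB, which went from 96.6 to 61.0%. PLD6, a nuclease of piRNA production, had the largest fall, from 96.2 to 13.7%.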

How the data were processed

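Whole-genome bisulfite libraries were prepared by the authors from sonicated DNA, trimmed with Trim Galore and aligned to GRCh37 with Bismark, for which the sources give different versions, and Bowtie2. The deposited files hold raw counts of methylated and unmethylated calls per CpG cytosine for each library. Removal of duplicate reads is not given in the sources used here, and bisulfite does not separate 5-methylcytosine from 5-hydroxymethylcytosine.

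Positions were checked against GRCh37 (99.8% lay at a CpG when counted from 0) and are printed counted from 1. Calls of both strands were added per CpG, and a level is the share of calls that were methylated. Genes came from GENCODE release 44 lifted to GRCh37, with 1 canonical start each. A quasi-binomial logistic model was fitted to each feature that had 10 or more calls in all 6 libraries (likelihood-ratio F test, R 4.3.3), with the dispersion squeezed by limma 3.58.1 and kept at 1 or more. The Benjamini-Hochberg adjustment ran over all coding promoters or bodies, at a threshold of 0.05, and the test was checked on simulated calls. Levels and figures were made with Python 3.11.15, numpy 2.4.6, pandas 2.3.3, scipy 1.17.1 and matplotlib 3.10.9. Exact permutation of 3 libraries against 3 cannot give a two-sided p below 0.1, so none was run. Libraries of a group differed by more than independent calls would give (mean chi-square per promoter of 1.67 to 2.45) and were counted separately. That check takes calls as independent, so it cannot show that the libraries are separate replicates.

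The members and lists were chosen with earlier results of these data known. Values in every library are given for the 8 members with the largest promoter fall, the 6 that kept the largest share among those at 50% or more in conventional cells, the 4 lowest in conventional cells, and the 3 bodies that kept the most and the 3 that kept the least. Alternatives were a minimum of 5 or 30 calls, other promoter and body bounds, another start, levels averaged over CpGs, Fisher's exact test, a replicate block and each library left out.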

Additional observations from a re-analysis of the deposited data

How the results depend on the processing

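Of the 916 alternative values of single promoters and bodies, 895 kept their direction and side of the threshold. The number of member promoters that were lower was 38 as reported and 36 to 39 under the other starts, minimums and tests. It was 37 to 39 when a library was left out. In the narrow window, from 250 bp before to 50 bp after the start, 25 of the 36 with enough calls were lower. The 67.4% of all coding promoters holds for the main setting, and the shares lower under the other settings are not given here. In the narrow window 13 of the 46 further germ cell genes were lower in place of 42, with fewer calls per promoter. How many of the 46 had 10 or more calls in every library there is not given. Of the 46, 23 began under 50% in conventional cells over the wide promoter. Fisher's exact test called 1 member promoter higher (DMC1) and also RAD21L1 lower. The mean difference of the member promoters was -43.9 points as reported, -45.2 from 500 bp before to 500 bp after the start, -49.1 in the narrow window, -41.5 at the start farthest upstream, and -44.4 to -43.5 points when a library was left out (-44.4 with levels averaged over CpGs). REC8 turned to 3.22 points higher in the narrow window and MAEL to 1.67 points higher at its farthest upstream start, and neither passed the test. DMC1 turned to -0.165 points in the narrow window and RAD21L1 to 0.584 points from 500 bp before to 500 bp after the start, and neither passed the test there. RAD21L1 passed the test without conventional replicate 3 (-5.49 points, adjusted p = 0.0320). Same-numbered libraries did not deviate together over promoters (r of 0.00703, 0.0114 and 0.00947). Every library correlated best with its own number, a hint from the data only, but all r lay far below 0.1, so the samples were taken to share only a number. With a replicate block 37 member promoters were lower, with TEX14 lost (-9.82 points, adjusted p = 0.0844). The narrow window has fewer calls per promoter, and 5 members whose calls it lost or turned (HORMAD2, MEIOB, SMC1B, SYCE2 and REC8) had 1.00 to 3.41% there in conventional cells, so a promoter under the threshold there is not shown to be unchanged.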
